A study of Capra hircus with 4 samples.

Results

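RNA-seq of goat longissimus muscle was compared between treated library 2 and the control library. The comparison was limited to goat genes with at least 10 counts in treated library 2 or at least 1000 counts in the control library, and 1446 of the 11208 goat gene names in the data met this rule. Of these genes, 567 met both counts, 734 met only the count in treated library 2 and 145 met only the count in the control library. The animals were Cashmere Goats, 2 months old according to the labels, and the muscle was Longissimus dorsi, which extends the back. The full schedule of the treated group was ractopamine by mouth at 1 mg/kg of body weight each day for 28 days, then 21 days without it. Animals were sampled at several days of this schedule, and the control goats received no ractopamine. The study describes its goats as male and states that fat and connective tissue were washed from the meat before freezing. The series holds 4 libraries, 1 control and 3 treated, and the treated libraries are called by their number. Muscle for sequencing was taken, per the study's methods, on dosing day 21 and on withdrawal days 3 and 21, and the labels tie no library to a day. The unigenes detected numbered 39256, 11275 and 30808 in treated libraries 1, 2 and 3. The paper prints these same numbers, as genes differing from control, for its dosing, earlier withdrawal and later withdrawal groups, in this order. This match places treated library 2 after withdrawal, on the earlier of the withdrawal days, although no label states it.

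Ractopamine is a beta-adrenergic agonist given to livestock to increase muscle and reduce fat. Beta-adrenergic receptors raise cAMP, which activates protein kinase A and changes transcription, protein turnover and fat breakdown in muscle. Skeletal muscle consists mainly of fast and slow fibres, which use different forms of myosin, troponin and the calcium pump, and of a surrounding matrix of collagen that is made largely by fibroblasts.

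With 1 library on each side, no test of the treatment was possible and the samples' spread is unknown. Levels are expected counts per 1000000 counts in goat genes, where an expected count is the deposited estimate of the number of fragments. A ratio is the level in treated library 2 divided by the level in the control library, with its exact 95% Clopper-Pearson interval. A gene was called higher when the interval lay wholly above 2 and lower when it lay wholly below 0.5. The intervals cover counting error only, not differences between animals, and these calls compare 2 libraries and not the conditions.

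The depth in goat genes was very different between the libraries. Treated library 2 held 7339521 expected counts, of which 133809 (1.82%) were in goat genes, whereas the control library held 8533046, of which 6086312 (71.3%) were in goat genes. Goat genes took 50.1% of the counts of treated library 1 and 40.4% of treated library 3. Unigenes, the assembled sequences on which reads were counted, that matched the mitochondrial genome took 89.4% of treated library 2 and 23.3% of the control library. In treated library 2, 1 count was a level of 7.47, and the limit that a count of 0 allows (3 counts) was 22.4 per 1000000, against 0.493 in the control library. The 116 genes with exactly 10 counts in treated library 2, just inside the rule, had a level of 74.7 there (exact Poisson interval 35.8 to 137) and a median of 376 control counts. The 148 genes with 9 counts, just outside unless the control count brought them in, had a level of 67.3 and a median of 384 control counts. At the other limit, ALDH1A1 entered with 1001 control counts and 31 counts in treated library 2, while ARF1 with 998 control counts entered only through its 19 counts in treated library 2.

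**Figure D1:**
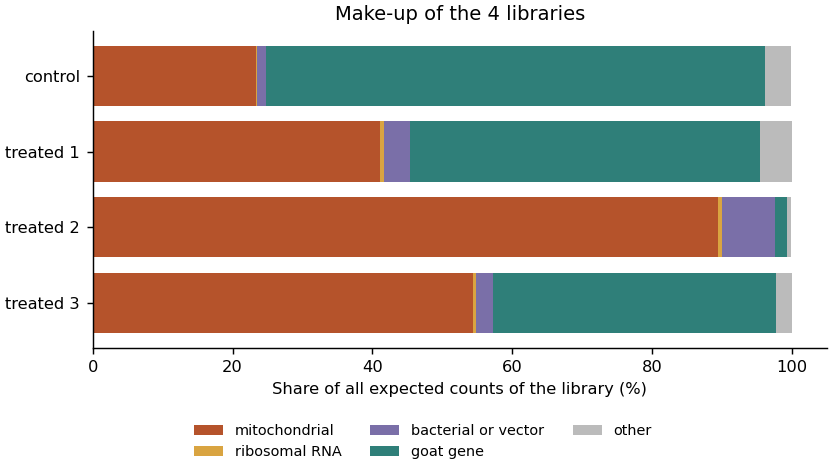
Share of all expected counts, in percent, taken by each class of unigene in the control library and the 3 treated libraries. Goat genes outside the mitochondrial, ribosomal and bacterial classes took 71.3% of the control library and 1.8% of treated library 2.

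The label of the tissue was checked against skeletal muscle markers. The 11 markers found held 142212 of 1000000 counts in the control library and 141836 in treated library 2, a ratio of 0.997 (0.983 to 1.01). Treated libraries 1 and 3 held 154677 and 199173. The summed share of muscle markers among goat genes thus differed by less than the counting error between both libraries. CKM, the muscle creatine kinase, made up much of this sum, with a level of 51044 in the control library and 67955 in treated library 2. Without CKM, the markers had a ratio of 0.81 (0.794 to 0.827). Single markers varied, with log2 ratios from -2.33 to 1.00 among the 10 with at least 1000 control counts.

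Of the 1446 genes, 308 (21.3%) were higher in treated library 2 and 218 (15.1%) were lower. The direction is relative to the other goat genes. When the counts were set against all counts of each library instead, 5 genes were higher and 1362 lower, since goat genes as a whole took a far smaller share of treated library 2. A gene that entered through its count in treated library 2 alone had to be high there, and 250 of those 734 genes were higher and 0 lower, so the numbers among these genes are only a description. The 712 genes chosen through the control library carry the opposite bias, since they had to be abundant in the control library. Among them, 58 (8.15%) were higher and 218 (30.6%) lower, with a median log2 ratio of -1.07 and quartiles of -2.03 and -0.03. A list with a median near -1.07 was at the level of the other abundant genes, and list medians and counts of the control-chosen genes are read against these values of genes chosen in the same way. Of the 218 lower genes, 100 had fewer than 10 counts in treated library 2 and met the rule through the control library alone. When all ratios were shifted so that this median was 1, 562 of the 1446 genes were higher and 55 lower.

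**Figure D2:**
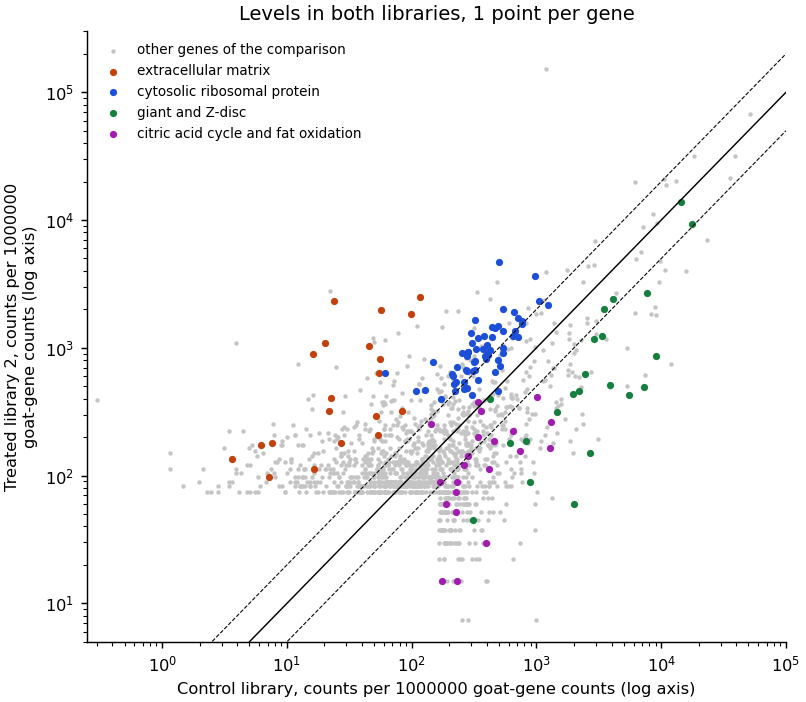
Level of each of the 1446 genes in the control library (x axis) and in treated library 2 (y axis), in counts per 1000000 goat-gene counts on log axes. The solid line marks equal levels, the dashed lines a ratio of 2 and 0.5, the colours mark 4 gene lists, and LOC102172500, with 0 control counts, is drawn at the left edge. Matrix genes lie above the lines, ribosomal protein genes near the upper dashed line, and most Z-disc genes below the lines.

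The genes with the highest ratios included the fibrillar collagens. Stretches of the assembled coding sequence of COL3A1 and COL1A1 are shown to identify them. Collagen chains wind into a triple helix and repeat a unit of glycine followed by 2 other residues, and the glycine codon (GGN) of each unit is in capitals.
COL3A1: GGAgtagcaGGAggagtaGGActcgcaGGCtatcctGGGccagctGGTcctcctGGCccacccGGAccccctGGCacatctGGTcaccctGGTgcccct
COL1A1: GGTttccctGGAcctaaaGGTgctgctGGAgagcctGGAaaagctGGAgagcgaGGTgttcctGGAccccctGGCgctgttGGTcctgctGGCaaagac
The stretches are bases 487 to 585 and 4 to 102 of the deposited coding sequences, 5′ to 3′, and each holds 11 such codons. This unit was repeated without a break 345 times in COL3A1 and 204 times in COL1A1, and glycine codons made up 28.3% and 25.6% of all codons, against a median of 6.83% over the genes of the comparison. Both assembled sequences were thus of collagen.

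Genes of the extracellular matrix, the collagens, laminins and proteoglycans around the fibres, were far higher in treated library 2. Their summed level over the 21 genes found, with no filter on counts, was 789 in the control library and 15574 in treated library 2, a ratio of 19.7 (18.7 to 20.8) among goat genes and of 0.505 among all counts of the library. The same sum was 974 in treated library 1 and 1559 in treated library 3. COL3A1, a collagen of reticular fibres, had a level of 23.7 in the control library against 34.1, 2317 and 50.8 in treated libraries 1, 2 and 3. Its ratio was 97.9 (80.1 to 120), and its 310 counts exceeded the 144 of the control library although treated library 2 held far fewer goat-gene counts. COL1A1 and COL1A2, the chains of type I collagen, had levels of 16.1 and 20.2 in the control library and of 889 and 1091 in treated library 2.

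The matrix genes varied widely among themselves. The ratio was 55.2 (41.9 to 72.9) for COL1A1 and 54 (42.2 to 69.2) for COL1A2. SPARC, a matrix protein that binds collagen, went from a level of 56.4 to 1958, and DCN, the proteoglycan decorin, from 45.7 to 1039. The basement membrane collagens COL4A1 and COL4A2 had the lower ratios 21.5 (18.8 to 24.5) and 18.9 (16.3 to 22), and the 3 genes of collagen VI had ratios between 11.7 and 17.8. The smallest were those of the laminins LAMB2, at 3.87 (2.76 to 5.28), and LAMC1, at 3.93 (2.57 to 5.79). The intervals of COL3A1 did not overlap those of any of these genes. Each of the 21 genes had an interval above 2, including COL5A1 with 5 counts, which did not meet the rule. The other 20 entered through treated library 2 alone, where they are high, so this number is a description. Of all 734 genes that entered in this way, 250 were higher. Without COL1A1, COL1A2 and COL3A1, the remaining 18 genes still had a summed ratio of 15.5 (14.6 to 16.4).

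Markers of other cell types were read as summed levels over all genes found. The 6 fibroblast markers, of which 5 are also in the matrix list, had a ratio of 35.7 (32.4 to 39.3), and the sixth, PDGFRA, had 2 control counts and 0 in treated library 2. The 5 endothelial markers had a ratio of 2.71 (2.22 to 3.28), with TEK, an angiopoietin receptor, at 8.45 (4.29 to 15.4), a log2 ratio of 3.08 that was 1.5 with TPM, and KDR, a VEGF receptor, at 123 control counts and 2 counts in treated library 2. The 3 smooth muscle markers other than ACTA2, whose unigene best matched the skeletal actin ACTA1, had a ratio of 2.86 (1.75 to 4.44). The 5 adipocyte markers had a ratio of 5.53 (4.64 to 6.55) but were split, and the 4 other than PLIN4 had a ratio of 21.8 (17.8 to 26.6). LPL, lipoprotein lipase, had a ratio of 7.14 (4.85 to 10.2). ADIPOQ, the fat hormone adiponectin, had levels of 12.3 in the control library against 101, 740 and 23.7 in treated libraries 1, 2 and 3, a ratio of 60 (44 to 82.2). CIDEC, a lipid droplet protein, had 9 and 11 counts, whereas PLIN4, a perilipin that is also present in muscle, had 930 control counts and 1 count in treated library 2. The 5 myeloid markers found had 14 counts in the control library and 5 in treated library 2, a summed ratio of 16.2 (4.58 to 47.7). The complement genes C1QC, at 68.2 (7.82 to 817), and C1QB, at 22.7 (2.06 to 159), were past the limit on 3 and 2 counts, and C1QA, CD68 and AIF1 were at 0. The red blood cell markers had 2 counts, a ratio of 3.37 (0.388 to 13.4), and the B and plasma cell marker 1 count, a ratio of 2.39 (0.0576 to 15.1). The number of cells of a type and the RNA per cell cannot be told apart in muscle tissue, and the part of these cell types in the matrix values was not tested.

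**Figure D3:**
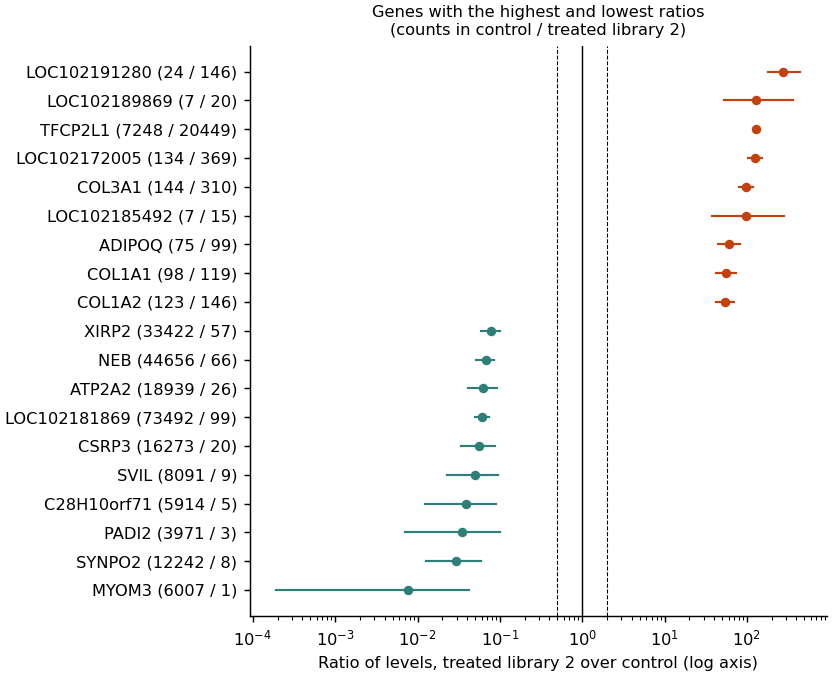
Ratio of the level in treated library 2 to the control library on a log axis for 9 of the 10 genes with the highest lower bound, and for the 10 genes with the lowest upper bound. Points are ratios, bars are exact 95% intervals for counting error, names carry the counts in the control library and in treated library 2, and LOC102172500, with no control count, is left out. COL1A1, COL1A2 and COL3A1 stand at ratios of 54 to 97.9, and MYOM3 is the lowest at 0.00757.

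The other genes with the highest ratios had uncertain names. LOC102191280 had a level of 3.94 in the control library against 15.8, 1091 and 7.04 in treated libraries 1, 2 and 3, a ratio of 277 (179 to 446). Its protein match was a WAS/WASL-interacting protein, but its nucleotide match was the sheep GTL2 gene, an imprinted long non-coding RNA also called MEG3. LOC102189869, an uncharacterized protein, had 7 control counts and 20 counts, and LOC102185492, named for an immunoglobulin chain and matched at 33% identity, had 7 and 15. LOC102172500 had 0 control counts and 52 counts, at least 788-fold higher against a floor of 3 control counts, and LOC102172005 had 134 and 369. The log2 ratio of LOC102172005, 6.97, was 0.64 without unigenes matched to bacterial, ribosomal or mitochondrial sequence and 5.07 with TPM, and that of LOC102185492, 6.61, was 4.99 with TPM. The nucleotide matches of LOC102172500 and LOC102172005 were a Neisseria genome and a cloning vector. The gene name TFCP2L1 had 7248 control counts and 20449 counts, which was 15.3% of all goat-gene counts of treated library 2, but its only unigene had a yeast regulator of rDNA transcription as a further protein match and a human genomic clone as nucleotide match. In 10 of the 1446 genes, over 50% of the counts in treated library 2 lay in unigenes matched to bacterial or vector sequence, among them RPS14, MRPS16, MRPL2 and MRPL11.

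Cytosolic ribosomal proteins, which build the protein-synthesizing ribosome, had the highest median of the lists with genes chosen through the control library. Of the 58 chosen through the control library, 26 were higher (8.15% over all 712 genes), 0 lower and the others neither, with a median log2 ratio of 1.25. This lies above the median of -1.07 over all 712 genes, but set against all counts of each library the median was -4.04. Their summed level was 25687 in the control library against 43335, 67268 and 41124 in treated libraries 1, 2 and 3. RPL4, a large-subunit protein, had a level of 971 in the control library and 3654 in treated library 2, a ratio of 3.76 (3.43 to 4.13). RPL17 had a ratio of 5.1 (4.41 to 5.86) and RPL34, with 894 control counts, 5.24 (4.23 to 6.43). RPS14 was the highest of the 58, with a log2 ratio of 3.22, but it is the gene whose counts lay mostly in a bacterial match, and without it the summed ratio was 2.49 (2.43 to 2.54). Of the list genes with a count in treated library 2, RPL3L, the form of RPL3 made in striated muscle, had the lowest ratio, 0.931 (0.711 to 1.2). In this list, 2 further genes had 0 counts there. RPL3 itself, with 372 control counts, had a ratio of 10.4 (8.11 to 13.2). RPL3 and RPL34 met the rule through treated library 2 alone, where they had to be high, so their ratios are a description. In the translation factor list, 17 genes were chosen through the control library. Of these, 0 were higher and 2 lower, EIF4G1 and EIF5, against 8.15% and 30.6% over all 712 genes. The median log2 ratio was -0.68.

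**Figure D4:**
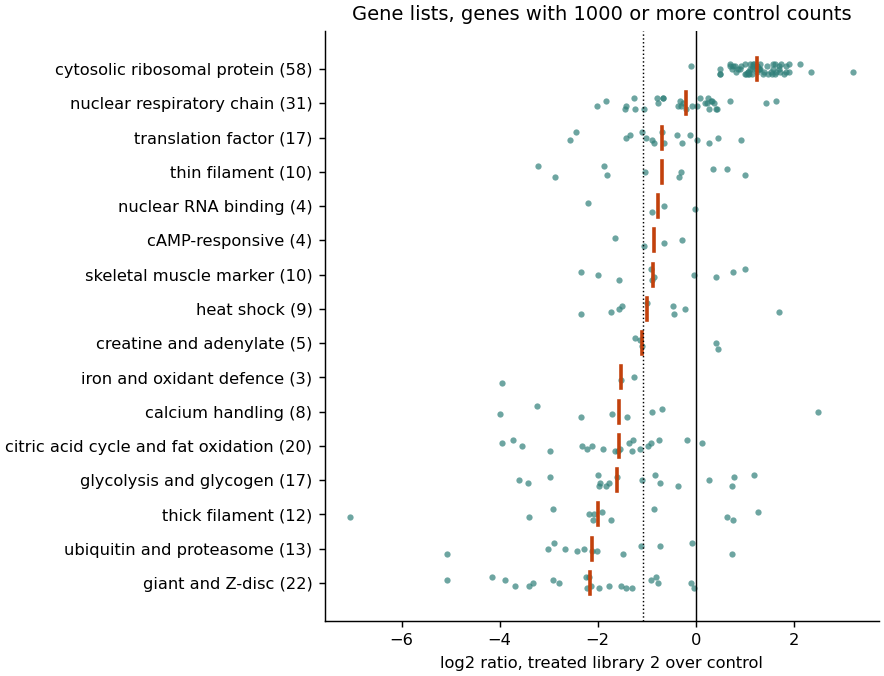
Log2 ratio of treated library 2 over control (x axis) for genes with at least 1000 control counts, by gene list, with the number of genes in parentheses. Points are genes, thick bars list medians, the solid line marks a ratio of 1 and the dotted line the median of all 712 genes, -1.07. The ribosomal proteins (median 1.25) stand apart on the right, and the giant and Z-disc list (median -2.15) is the lowest.

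Giant proteins and Z-disc proteins, which anchor and align the filaments of the sarcomere, had the lowest median. Of 22 chosen through the control library, 17 were lower (30.6% over all 712 genes) and 0 higher, and the median log2 ratio was -2.15. NEB, the giant nebulin of the thin filament, had a level of 7337 in the control library against 2498, 493 and 2260 in treated libraries 1, 2 and 3, a ratio of 0.0672 (0.052 to 0.0855). Its log2 ratio of -3.89 was -2.88 with unigenes of 90% identity or more and -4.88 with TPM. SYNPO2, an actin-binding Z-disc protein, had 12242 control counts and 8 counts, a ratio of 0.0297 (0.0128 to 0.0586). CSRP3, the muscle LIM protein, had a level of 2674 in the control library and 149 in treated library 2. XIRP2 and FLNC, which are actin-binding proteins of the Z-disc and of sites of repair, had ratios of 0.0776 (0.0587 to 0.101) and 0.0943 (0.0778 to 0.113). For FLNC the log2 ratio of -3.41 was -5.02 with 1 unigene per gene and -2.62 with TPM. The list was not uniform: TTN, the giant titin, had a ratio of 0.53 (0.501 to 0.56), and DES, the intermediate filament desmin, had 14273 and 13908 per 1000000, a ratio of 0.974 (0.93 to 1.02).

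In the thick filament list, 7 of 12 genes chosen through the control library were lower, and the median log2 ratio was -1.99. MYOM3, a protein of the M-band, had 6007 control counts and 1 count in treated library 2, a ratio of 0.00757 with a counting interval from 0.000192 to 0.0422. Its level was 987 in the control library against 288, 7.47 and 63 in treated libraries 1, 2 and 3, so it was below the control in all 3 treated libraries. LOC102181869, whose nucleotide match is a sheep slow myosin heavy chain, had a level of 12075 in the control library and 740 in treated library 2, a ratio of 0.0613 (0.0498 to 0.0746), or on the log2 scale -4.03, which was -3.40 with 1 unigene per gene. The gene named MYH4 had the same nucleotide match at 83% protein identity, with a ratio of 0.301 (0.282 to 0.321), so which myosin it measures is uncertain. In the thin filament list, 4 of 10 were lower and 0 higher, near the 30.6% and 8.15% over all 712 genes, with a median log2 ratio of -0.69.

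Fast and slow forms of the same protein were then set side by side, in 7 pairs chosen after the values had been seen. In every pair the fast form had the higher log2 ratio, by 0.85 for alpha-tropomyosin to 4.91 for troponin I. The summed level of the 7 fast forms was 59972 in the control library and 75212 in treated library 2, a ratio of 1.25 (1.23 to 1.28). The summed level of the 7 slow forms was 27718 and 8408, a ratio of 0.303 (0.286 to 0.322). Fast troponin I, TNNI2, which carried the goat gene name LOC100860775 at 59% identity, had a level of 6179 in the control library and 19991 in treated library 2, while slow TNNI1 went from 2364 to 254. The protein match of this name was cardiac troponin I, TNNI3, and TNNI2 is the nucleotide match of its main unigene. The log2 ratio of LOC100860775 was 1.69, and 1.67 with 1 unigene per gene. With unigenes of 90% identity or more it was 3.08, but that setting leaves out the main unigene. The difference of 4.91 rests on the value of 1.69. The regulatory light chains differed in the same direction, with a ratio of 1.71 (1.64 to 1.78) for fast MYLPF and 0.222 (0.195 to 0.252) for slow MYL2. ATP2A2, the slow-fibre calcium pump, had a ratio of 0.0624 (0.0408 to 0.0915), and ATP2A1, the fast-fibre pump, 0.376 (0.345 to 0.409). In treated libraries 1 and 3, which share the control library, the slow sums were 15515 and 12027 and the fast sums 101982 and 121285. The slow sum was thus lowest, and the fast sum smaller than in the other treated libraries, in treated library 2. The fast form had the higher log2 ratio in every pair in those libraries too. The differences were 0.32 to 6.75 in treated library 1 and 1.36 to 5.57 in treated library 3. Only for troponin I was the difference largest in treated library 2.

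Calcium handling genes had a median log2 ratio of -1.56, with 5 of 8 lower and 1 higher, against 30.6% and 8.15% over all 712 genes. RYR1, the calcium release channel, had a level of 9067 in the control library and 1809 in treated library 2. TRDN, triadin, which binds that channel, was the exception, with a level of 428 in the control library against 253, 2429 and 265 in treated libraries 1, 2 and 3, and a ratio of 5.67 (5.04 to 6.37).

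The genes of energy metabolism had ratios on both sides of 1. In glycolysis and glycogen breakdown, 7 of 17 genes were lower and 1 higher, near the same 30.6% and 8.15%, and the median log2 ratio was -1.61. PYGM, the muscle glycogen phosphorylase, had a ratio of 0.251 (0.23 to 0.274) and PFKM, the muscle phosphofructokinase, 0.126 (0.0978 to 0.161). PGAM2, the muscle phosphoglycerate mutase, was higher at 2.3 (2.15 to 2.46), and GAPDH had levels of 18289 in the control library and 31425 in treated library 2, a ratio of 1.72 (1.67 to 1.77). In the citric acid cycle and fat oxidation, 9 of 20 were lower (30.6% over all 712 genes) and 0 higher, with a median log2 ratio of -1.56. HADHA, a subunit of the mitochondrial enzyme of fatty acid oxidation, had a level of 1289 in the control library and 164 in treated library 2, and CPT1B, which admits fatty acids to mitochondria, had 1408 and 2 counts. The nuclear genes of the respiratory chain stood above the general median. Of 31, 2 were higher (NDUFS8 and NDUFB7), 2 were lower (SDHA and ATP5B), and the median log2 ratio was -0.20. Creatine and adenylate genes had a median log2 ratio of -1.10, with SLC25A4 lower and CKM at 1.33 (1.3 to 1.36).

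Protein turnover and stress genes differed within their lists. In the ubiquitin and proteasome list, 7 of 13 were lower (30.6% over all 712 genes) and 0 higher, with a median log2 ratio of -2.11. FBXO32 and TRIM63, ubiquitin ligases of muscle wasting, had 1537 and 1357 control counts and 1 and 4 counts in treated library 2. TRIM63 had a level of 1661 in treated library 1, against 223 in the control library and 29.9 in treated library 2. Among heat shock genes, HSPB6 was higher at 3.28 (2.99 to 3.58) and CRYAB lower at 0.301 (0.265 to 0.341), with a list median of -0.99. CRYAB had levels of 6205 in the control library against 22899, 1868 and 1880 in treated libraries 1, 2 and 3. In oxidant defence, CAT, catalase, had 2106 control counts and 3 counts, while the glutathione peroxidases GPX3 and GPX4 had ratios of 7.56 (5.82 to 9.71) and 4.73 (3.69 to 5.98). CAT met the rule through the control library alone, and GPX3 and GPX4 through treated library 2 alone. Each was thus chosen where it was high, and this contrast is only a description. Of the nuclear RNA-binding list, 0 of 4 genes chosen through the control library were higher or lower. PNISR, a protein linked to splicing, met the rule through treated library 2, with levels of 47.3 and 366.

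Genes that respond to cAMP, the messenger of beta-adrenergic receptors, were mostly too low to be measured in treated library 2. All 23 listed genes were found and 6 met the rule. Of the 4 chosen through the control library, 1 was lower, near the 30.6% over all 712 genes. This was PRKAR2A, though its main unigene best matched UBE2R2. The summed level was 2257 in the control library against 4051, 1263 and 2024 in treated libraries 1, 2 and 3, a ratio of 0.56 (0.478 to 0.651) for treated library 2. FOS, an early response gene, had 823 control counts and 1 count. CREM, a cAMP-responsive transcription factor, had a level of 38.9 in the control library against 462, 82.2 and 44.5 in treated libraries 1, 2 and 3. Its ratio of 2.11 (1.04 to 3.85) was not past the limit.

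Among the other genes that the study selected for qRT-PCR, FABP5, a fatty acid carrier, had levels of 92.3 in the control library against 444, 717 and 241 in treated libraries 1, 2 and 3, a ratio of 7.77 (6.19 to 9.66). FABP5 met the rule through treated library 2 alone, where it had to be high, so its ratio is a description. PDE4C, a phosphodiesterase that degrades cAMP, had a ratio of 0.64 (0.409 to 0.955), and MYH9, a non-muscle myosin, 1.16 (0.771 to 1.67). Neither was past the limits. HSL, the hormone-sensitive lipase, had 67 control counts and 2 counts, and FOXO1, a transcription factor of fasting, had 251 and 0, at least 1.84-fold lower against 3 counts. The ratio of HSL was 1.36 (0.161 to 5.1), so a difference in it was not detectable at this depth. Both genes missed the rule. NEB and LOC102185492 are described above.

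The ratio differed with the length of the gene's unigenes. The 712 genes chosen through the control library were put into 4 equal classes by the summed length of their unigenes. The median log2 ratio was 0.71 in the shortest class (327 to 1601 bases), -1.01 in the second, -1.55 in the third and -1.77 in the longest (4623 to 87804 bases). In the shortest class 48 of 178 genes were higher and 16 lower, and in the longest 1 was higher and 82 lower. Across these 712 genes, which are not independent replicates, Spearman's rho with length was -0.524. Without ribosomal proteins, which are short, the medians were -0.18, -1.05, -1.56 and -1.79, so the order of the classes was kept. Treated library 1 had medians of 0.33, -0.54, -0.85 and -1.0 in the same classes and treated library 3 had 0.53, -0.34, -0.69 and -1.11, against the same control library. By GC content the class medians ranged from -1.24 to -1.01, and by control counts from -1.38 to -0.91.

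**Figure D5:**
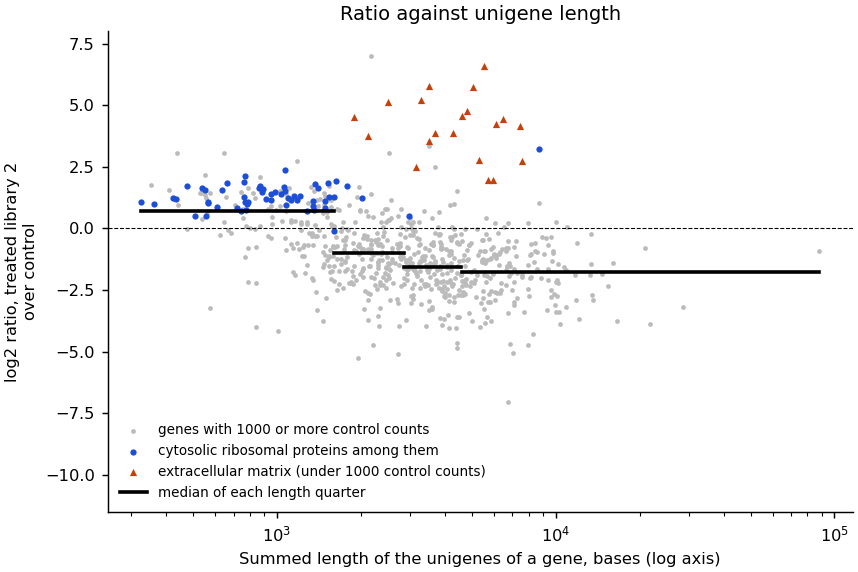
Log2 ratio of treated library 2 over control (y axis) against the summed length of a gene's unigenes in bases (x axis, log). Grey and blue points are the 712 genes with at least 1000 control counts, thick bars are medians of the 4 length classes (0.71, -1.01, -1.55 and -1.77), and triangles are extracellular matrix genes that met the rule with fewer control counts. The median falls from the shortest to the longest class, and the triangles were selected through high counts in treated library 2, so their height is not comparable with the other points.

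The matrix genes entered through treated library 2 alone, where they had to be high, so they cannot be read against these classes. Their unigenes had a median summed length of 4609 bases (1743 to 7562), against 954 bases for the ribosomal proteins and 5968 for the giant and Z-disc list. COL3A1, with 5553 bases, had a log2 ratio of 6.61 and NEB, with 21874 bases, one of -3.89. How far length takes part in the ratios of the other lists was not tested.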

How the data were processed

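The study sequenced RNA from longissimus muscle (NEBNext Ultra library kit, Illumina HiSeq 2500) and the labels name FastQC 0.10.1. The assembler, aligner and counting tool are not given in the sources used here. The authors deposited, for 59774 assembled unigenes and for their transcripts, an expected count that was a whole number throughout, and TPM and FPKM. FPKM values were not used. A deposited table pairs 21220 unigenes with goat gene names at a percent identity of the protein match of 30 to 100. Of these, 25 unigenes carry no gene name, match mitochondrial proteins and hold 6183987 counts of treated library 2, and were left out of the sums. Expected counts were summed by goat gene name and divided by the sum over these names. Symbols were updated with the RefSeq gene table of the assembly ARS1.2, which changed 381 of 11208 names and held 10578 of the resulting symbols, and no chromosome positions were taken from it.

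Ratios have exact 95% Clopper-Pearson intervals, and shares of counts Wilson intervals. A count of 0 in treated library 2 was set to 3 counts. Treated and control each had 1 library in this comparison, so no p-value was computed, and where the labels name 3 treated libraries nothing says which animals they came from. The interval rule was also run on counts simulated with counting error alone, which cannot show the spread between animals. The wording of the best nucleotide match put 35 unigenes in a mitochondrial, 37 in a ribosomal RNA and 208 in a bacterial or vector class. The members and the 25 gene lists were chosen with earlier results of these data known. Named genes were the 15 with the highest level in treated library 2, the 10 with the highest lower bound and the 10 with the lowest upper bound, the 4 most abundant of each list, the genes selected by the study, and GAPDH. Any further list member in the text was named after its values were seen. Alternatives were other scalings, TPM, identity limits, 1 unigene per gene, transcripts, filters and limits. Calculations and figures were made in Python 3.11.15 with scipy 1.17.1, numpy 2.4.6, matplotlib 3.10.9 and pandas 2.3.3.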

Additional observations from a re-analysis of the deposited data

Results flagged for a closer look

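These results come from unigenes outside the goat genes, where the signal in treated library 2 was above that of the control library. Unigenes matched to the mitochondrial genome held 89.4% of its counts, against 23.3% of the control library, and those of treated libraries 1 and 3 held 41.1% and 54.4%. Unigenes matched to bacterial or vector sequence held 7.53%, against 1.33% in the control library, and those matched to ribosomal RNA 0.674%, against 0.215%.

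Among unigenes in none of these classes and with no goat gene name, c8656_g1 matched an uncharacterized sheep RNA. It had 16 counts in the control library against 591, 20655 and 1049 in treated libraries 1, 2 and 3, and of 1000000 counts in all it took 1.88 in the control library and 2814 in treated library 2, a ratio of 1501 (924 to 2626). Another of them, c13152_g1, matched a goat sequence named microsatellite II. It had 8 counts in the control library against 116, 4876 and 295 in treated libraries 1, 2 and 3, a ratio of 709 (359 to 1642). Stretches of 120 bases are shown from both unigenes, 5′ to 3′, with CpG in capitals, and for c8656_g1 the start of each repeat copy.
c8656_g1 from base 1: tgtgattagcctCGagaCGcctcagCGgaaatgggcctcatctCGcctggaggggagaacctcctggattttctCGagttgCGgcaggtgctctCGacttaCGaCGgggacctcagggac
c8656_g1 from base 805: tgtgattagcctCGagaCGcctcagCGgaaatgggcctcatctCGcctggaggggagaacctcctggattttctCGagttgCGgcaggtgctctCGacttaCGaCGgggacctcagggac
c13152_g1 from base 1: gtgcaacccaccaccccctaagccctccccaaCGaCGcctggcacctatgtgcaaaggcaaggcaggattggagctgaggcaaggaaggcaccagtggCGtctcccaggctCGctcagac
The unigene c8656_g1 is 1579 bases long and its sequence repeats with a period of 804 bases, with 775 bases identical between the copies. It had 6.33 CpG per 100 bases and c13152_g1 3.99, against a median of 3.85 over the main unigenes of the compared genes. A unigene matched to sheep satellite II, c6266_g1, had 0 control counts and 15 counts in treated library 2. Repeats of this kind share reads among their copies, so the counts of single unigenes are uncertain.

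Unigenes matched to Sarcocystis, a muscle parasite, numbered 9 and had 137 counts in treated library 2, against 4 control counts, and 172 and 1 counts in treated libraries 1 and 3. Per 1000000 counts of the library this was 18.7 in treated library 2 and 0.469 in the control. The causes of these differences were not tested, and a difference between animals and a difference between treatments cannot be told apart with 1 library each.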

How the results depend on the processing

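Of the alternatives run, scaling moved the calls most. Against all counts of each library, 5 genes were higher and 1362 lower (0.4% of calls higher, against 58.6%), and the median log2 ratio of the 712 abundant genes was -6.36. On that scale the log2 ratio turned negative for the ribosomal protein list (-4.04), RPS14 (-2.07), RPL4 (-3.38), LOC100860775 (-3.60), HSPB6 (-3.58), LPL (-2.45), PECAM1 (-3.50), CDH5 (-3.27), TEK (-2.21), DCN (-0.78), C1QB (-0.78), COL4A1 (-0.86), COL4A2 (-1.05), SPARC (-0.17), GPX4 (-3.05), GPX3 (-2.37), PNISR (-2.34) and FABP5 (-2.33). These are only list medians and genes that were named by rule and called higher. The change of scale moved every gene by -5.29 on the log2 scale. Others named in the text, such as TRDN, RPL17 and GSN, therefore turned negative too. The 5 genes higher on that scale were COL3A1, LOC102191280, TFCP2L1, LOC102172005 and LOC102172500. With the median ratio set to 1, 562 genes were higher and 55 lower. With TPM, 422 were lower and the median was -1.28. With unigenes of 90% identity or more the median was -0.91, and without TFCP2L1 and the bacterial, ribosomal and mitochondrial unigenes, an alternative chosen after seeing the data, it was -0.83 with 68.1% of calls higher. A mean level of at least 100 gave 177 higher genes, no filter 521, limits of 3 and 0.6 gave 203, and the ratio alone gave 374 lower. The transcript table and 1 unigene per gene left both counts within 1.5 times. Names taken from the nucleotide match, also chosen after seeing the data, moved none of 16 list medians by 1 or more on the log2 scale.

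No paired analysis was possible because the comparison has 1 library on each side, and no replicate was left out since that would leave no library. The depth of treated library 2 in goat genes limits most single genes: a gene needed over 22.4 counts per 1000000 to exceed the limit that a count of 0 allows. The spread between animals is unknown.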

Other observations

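Several genes outside the lists, named after their values were seen, also stood far above the control in treated library 2 as a share of goat-gene counts. Against all counts of each library, none of those named in this section was called higher. VIM, the intermediate filament vimentin of connective tissue and vessel cells, had a level of 111 in the control library against 234, 1487 and 213 in treated libraries 1, 2 and 3. CLU, the secreted chaperone clusterin, went from 61 to 1158, a ratio of 19 (15.7 to 23). GSN, the actin-severing protein gelsolin, had 2026 control counts and 366 counts, a ratio of 8.22 (7.33 to 9.19). SERPINF1, a secreted serine protease inhibitor family member, had 21 and 30 counts, and S100A4, a calcium-binding protein of fibroblasts and other motile cells, had 27 and 30.

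Genes linked to fat and to antigen presentation were among them too. SCD, the stearoyl-CoA desaturase, had a level of 14.8 in the control library and 396 in treated library 2, and the ratio was 26.8 (18.7 to 38). Fatty acid binding protein 4, the nucleotide match of LOC100861279, had levels of 7.89 and 209, and RBP4, the carrier of retinol, 3.12 and 164. The first of these was among the chosen adipocyte markers, but counts under this goat gene name did not enter that list. CD74, the invariant chain of MHC class II, had a level of 16.1 in the control library, 426 in treated library 2 and 135 in library 1, with a ratio of 26.5 (18.7 to 37). Of the genes named so far, GSN met the rule through both counts and the others through treated library 2 alone, so their high ratios are a description.

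On the low side, PDK4, a kinase that inhibits pyruvate dehydrogenase, had 11892 control counts and 20 counts in treated library 2, a ratio of 0.0765 (0.0467 to 0.118). Its level was 1954 in the control library against 438, 149 and 110 in treated libraries 1, 2 and 3. PFKFB3, a regulator of glycolysis, had 4511 and 4 counts, and met the rule through its control count alone, so its low ratio is a description too.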
